A study of Mus musculus with 22 samples.

Results

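Collagen-rich spots of the mouse mammary gland were compared between 18 and 3 months of age in 4 tissue sections of spatial transcriptomics. In each section, the 5% of spots with the largest share of unique molecular identifiers (UMIs, one per captured molecule) from Col1a1, Col1a2, Col3a1, Dcn and Lum were taken, among spots with at least 500 UMIs. Members were thus chosen by the measured levels of these 5 genes. This gave 1113 of 22235 spots at that depth and of 24815 spots under tissue. The sections came from virgin female C57BL/6J mice, an inbred strain, with 2 sections at 3 months and 2 at 18 months and no transgene or treatment given. Formalin-fixed, paraffin-embedded tissue was cut at 15 µm and read with probes on Visium CytAssist slides. Each spot covers a patch of tissue in which cells of more than 1 type can lie. The labels do not say whether the 2 sections of an age came from separate animals, so the p-values measure only the spread between these sections, which may be technical.

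Type I and type III collagens, encoded by Col1a1, Col1a2 and Col3a1, form the fibrils of connective tissue, and decorin (Dcn) and lumican (Lum) are small proteoglycans that bind those fibrils. Fibroblasts make most of these proteins. In the mammary gland the ducts lie in a fat pad, and the fibrous tissue forms sheaths around ducts and vessels and septa between lobules of fat cells.

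There were 219 chosen spots in the 3-month replicate 1, 198 in the 3-month replicate 2, 312 in the 18-month replicate 1 and 384 in the 18-month replicate 2, an order kept below where 4 values are given. The share of UMIs that chose them had a median of 3.15% and 3.30% at 3 months and 2.88% and 2.89% at 18 months, against 1.36%, 1.21%, 0.811% and 0.802% in the other spots of the same sections. The last spot inside the limit held 2.73%, 2.82%, 2.35% and 2.39%, and the first spot outside it 2.73%, 2.80%, 2.35% and 2.39%. There was thus no gap at the limit, and the limit itself was lower in both 18-month sections. Depth also moved with age. The chosen spots had a median of 6452 and 4427 UMIs at 3 months and of 2094 and 1539 at 18 months, and their summed UMIs were 1578694, 985140, 835078 and 689546.

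The name fibrous stroma held only in part. Adipocyte-rich spots, those with at least 3% of their UMIs from 12 adipocyte genes, made up 73.5%, 89.4%, 89.4% and 93.8% of the chosen spots, so that most chosen spots held fat cells as well, and they are called collagen-rich spots here. Epithelial-rich spots (at least 0.3% of UMIs from 12 epithelial genes) made up 2.74%, 3.54%, 4.81% and 1.04% of them. Lymphoid-rich spots (at least 0.5% from 18 lymphocyte genes, without Igkc and Ighm) numbered 0 in all 4 sections, which allows a share of up to 1.37%, 1.52%, 0.962% and 0.781%, and 1 chosen spot, in the 3-month replicate 1, was muscle-rich. The collagen-rich spots lay partly in small patches and partly alone. Of the neighbours of a collagen-rich spot, 13.9%, 25.9%, 28.4% and 17.9% were collagen-rich too, where 5% would be the share of all spots, and 47.0%, 34.3%, 27.9% and 47.1% of collagen-rich spots had no such neighbour. The largest patch held 9, 19, 20 and 12 spots.

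**Figure D1:**
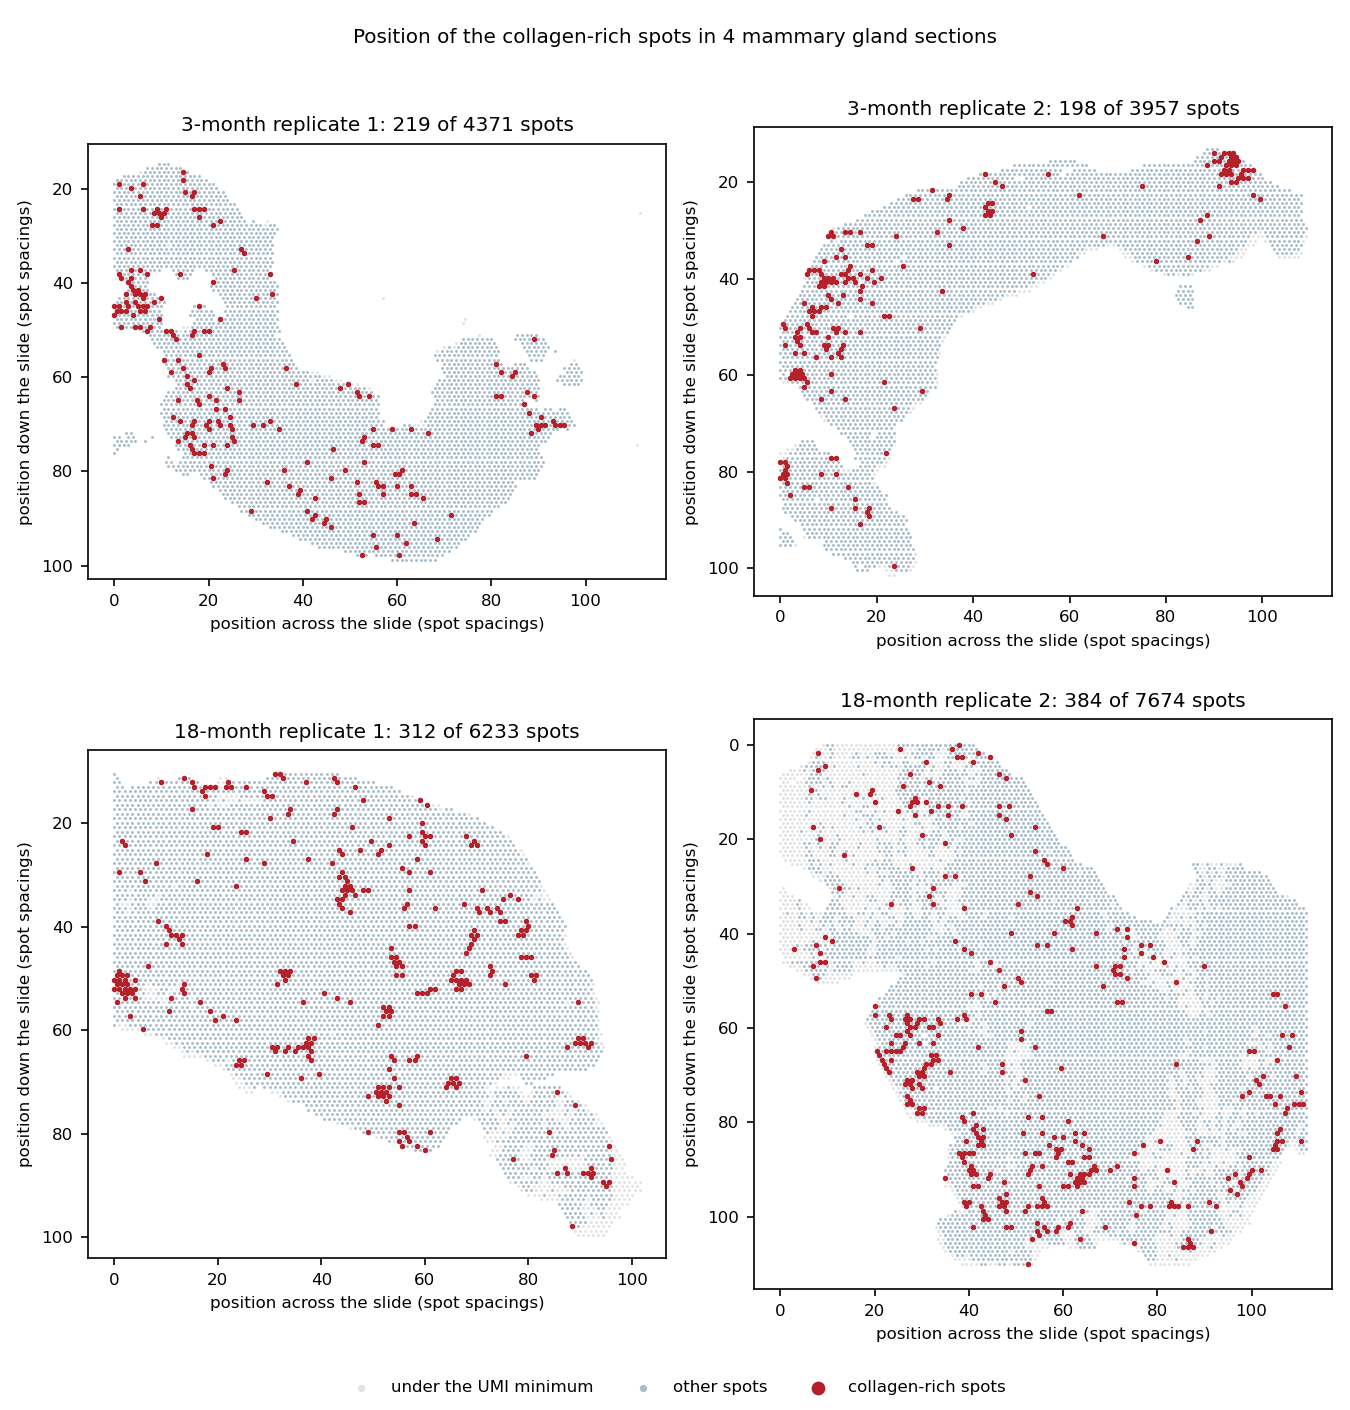
Position of the collagen-rich spots (red) among the other spots with at least 500 UMIs (blue-grey) and shallower spots (light grey) in each section, with both axes in spacings between neighbouring spots. The red points form small groups and lone spots across each section, and shallow spots are most frequent in the 18-month replicate 2.

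The genes that chose the spots are given as a description only, with no test. Col3a1 had the highest level of the 5, at 19055 and 19923 CPM (UMI counts scaled to the same total of UMIs in each section's chosen spots) in the 3-month sections and 19009 and 18019 CPM in the 18-month sections. Col1a2 stood at 7062 and 7319 CPM at 3 months and at 5704 and 5000.4 CPM at 18 months. Lum stood at 594 and 546 CPM at 3 months and at 954 and 1012 CPM at 18 months. Within the chosen spots the 18-month sections were therefore lower in Col1a2 and higher in Lum, and their Col3a1 levels lay just under both of those at 3 months. In the other spots the 5 genes summed to 12515 and 11548 CPM at 3 months and 6700 and 6021 CPM at 18 months, lower in both older sections. In the authors' deposited table of Moran's I, a spatial autocorrelation score that is high where adjacent spots have like levels, Col3a1 scored 0.418, 0.426, 0.380 and 0.25 and Lum 0.188, 0.144, 0.105 and 0.097.

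The first comparison asked which genes differed with age inside the collagen-rich spots, with the 5 choosing genes left out. UMIs were summed per section and tested with edgeR's quasi-likelihood test, with Benjamini-Hochberg adjustment over 10051 genes and a threshold of 0.05 on the adjusted p. At 18 months 51 genes were higher (0.507% of the genes tested) and 79 were lower (0.786%), together 130 genes or 1.29%. All 130 had both sections of one age above both of the other, as did 45.4% of all tested genes. Genes of fat synthesis were among the decreases, while immunoglobulin genes, a few enzymes and glycoproteins of the matrix, and the fat-cell hormone leptin were among the increases. In 126 of the 130 genes the other spots of the same sections moved in the same direction. That share was not counted over all tested genes, and spots of the same sections are no independent support. The number of genes rested on the 3-month replicate 1: without it 7 genes passed the threshold, all of them lower at 18 months, and without the 18-month replicate 1 it was 54 genes. Acacb, Acss2, Cyp2e1 and Mup17, all lower at 18 months, passed in each of the 4 fits that left out 1 section. Since a section's RNA is summed over spots, fewer cells of a type and less RNA per cell cannot be told apart in any of these values.

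Genes of fatty acid and triglyceride synthesis were lower at 18 months. Of 19 tested genes of this pathway, listed after the values were seen, 12 fell, beside 0.786% of all tested genes, and none rose. All 19 differences were negative, with a median log2 difference of -1.39, against 0.00 over all genes tested. The pathway turns citrate and acetate into acetyl-CoA, builds fatty acids from it, and attaches them to glycerol.

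Acss2, which makes acetyl-CoA from acetate, had 454 and 427 CPM in the 3-month sections and 105 and 89.9 CPM in the 18-month sections (log2 difference -2.23, SE 0.21, edgeR adjusted p = 0.000337). Slc25a1, the carrier that brings citrate out of mitochondria, had 445 and 389 CPM at 3 months and 135 and 113 CPM at 18 months (log2 difference -1.81, SE 0.21, adjusted p = 0.000529). Me1, the malic enzyme that supplies NADPH, had 789 and 631 CPM at 3 months and 222 and 178 CPM at 18 months (log2 difference -1.89, SE 0.22, adjusted p = 0.000529). In all 3 genes the 18-month sections were the lower pair, and the gap between ages was wider than the distance between sections of one age. Acly, which splits citrate, and Pcx, pyruvate carboxylase, fell by 1.39 and 1.49 on the log2 scale (edgeR adjusted p = 0.00541 and 0.00512).

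Acacb, an acetyl-CoA carboxylase of the mitochondrial surface, had 127 and 179 CPM at 3 months and 29.9 and 15.95 CPM at 18 months (log2 difference -2.75, SE 0.30, edgeR adjusted p = 0.000529). Acaca, the cytosolic carboxylase, had 1122 and 858 CPM at 3 months and 426 and 254 CPM at 18 months (log2 difference -1.60, SE 0.25, adjusted p = 0.00441). Fasn, fatty acid synthase, had 4381 and 3819.8 CPM at 3 months and 1769.9 and 776 CPM at 18 months (log2 difference -1.75, SE 0.32, adjusted p = 0.0114). The ages did not overlap in these 3 genes. Gpam, Agpat2, Lpin1 and Dgat1, which act in the successive steps from glycerol phosphate to triglyceride, fell by 1.36, 1.55, 1.11 and 1.52 on the log2 scale (edgeR adjusted p = 0.00597, 0.00302, 0.0175 and 0.00792). Dgat2, the other enzyme of the last step, had 1846 and 1794 CPM at 3 months and 1349.6 and 1923 CPM at 18 months, so that the ages overlapped. Scd1, a fatty acid desaturase with 7926 and 6086 CPM at 3 months and 5008 and 2879 CPM at 18 months, did not pass the test (log2 difference -0.89, edgeR adjusted p = 0.18). The transcription factor genes of the pathway did not pass either, with log2 differences of -0.36 for Srebf1 (edgeR adjusted p = 0.46) and -0.90 for Mlxipl (adjusted p = 0.11).

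Most of the spots behind these values also held fat cells. Without the adipocyte-rich spots, 58, 21, 33 and 24 collagen-rich spots and 2556 testable genes were left, and of 10 genes of the pathway that could still be tested none passed the threshold, with a median log2 difference of -0.07. Fasn then stood at 0.03 (edgeR adjusted p = 0.988) and Acaca at 0.67 (adjusted p = 0.444). The spots left were those of low fat-gene share, so these values cannot tell where the decrease arose. The class counts Cfd, which was lower at 18 months, so its limit may not pick like spots at both ages. Of the other spots, 92.1%, 94.7%, 92.6% and 91.9% were in the class too. Summed adipocyte genes had 73634 and 105107 CPM at 3 months and 65574 and 68046 CPM at 18 months in the collagen-rich spots, lower in both 18-month sections. Without Cfd, which fell on its own, the other 11 genes summed to 49361, 73706, 56995 and 59403 CPM, and the ages overlapped. Without the 3-month replicate 1, 2 of 18 tested genes of the pathway, Acacb and Acss2, passed.

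The sequence before the start of 3 of these genes is shown because the genes moved together in the same sections and differ in the motifs they carry. Each run is the 250 bases 5′ of the transcript start, from RefSeq on build GRCm38.p6, with capitals for CACGTG (the E-box read by helix-loop-helix factors, its own reverse complement) and for CCAAT on either strand. Fasn lies at chr11:120824548-120824797, minus strand, Slc25a1 at chr16:17928220-17928469, minus strand, and the upstream of 2 listed starts of Pcx at chr19:4510222-4510471, plus strand. The Pcx start was picked by how many of the 2 motifs its window held, and by position only after that.
Fasn: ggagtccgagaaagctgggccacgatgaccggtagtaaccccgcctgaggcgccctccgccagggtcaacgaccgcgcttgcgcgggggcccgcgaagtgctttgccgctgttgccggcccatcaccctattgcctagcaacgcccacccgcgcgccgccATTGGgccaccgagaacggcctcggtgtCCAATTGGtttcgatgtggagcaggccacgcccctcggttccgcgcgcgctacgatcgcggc
Slc25a1: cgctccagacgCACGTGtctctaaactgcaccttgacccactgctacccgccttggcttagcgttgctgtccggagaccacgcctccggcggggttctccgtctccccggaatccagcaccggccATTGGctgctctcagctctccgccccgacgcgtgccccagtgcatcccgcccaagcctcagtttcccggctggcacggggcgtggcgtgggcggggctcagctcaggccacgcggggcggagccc
Pcx: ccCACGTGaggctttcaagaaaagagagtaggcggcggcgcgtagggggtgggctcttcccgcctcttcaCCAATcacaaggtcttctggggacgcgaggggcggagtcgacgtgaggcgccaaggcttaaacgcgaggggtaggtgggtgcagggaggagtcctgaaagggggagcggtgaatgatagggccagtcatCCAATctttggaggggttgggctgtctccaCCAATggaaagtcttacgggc

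Fasn held 0 matches to CACGTG and 3 to CCAAT, of which 2 on opposite strands overlap. Slc25a1 and Pcx held 1 match each to CACGTG, and 1 and 3 to CCAAT. Among the 12 synthesis genes that fell, 11 were in the promoter table. CACGTG occurred in 2 of the 11, against 10.2% of tested genes in the table and 6.86% of all its genes, and CCAAT in 7 of the 11, against 39.6% and 37.5%. A gene was counted where the window of any of its listed starts held the motif. These are matches of letters in a window of 250 bases, over few genes.

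**Figure D2:**
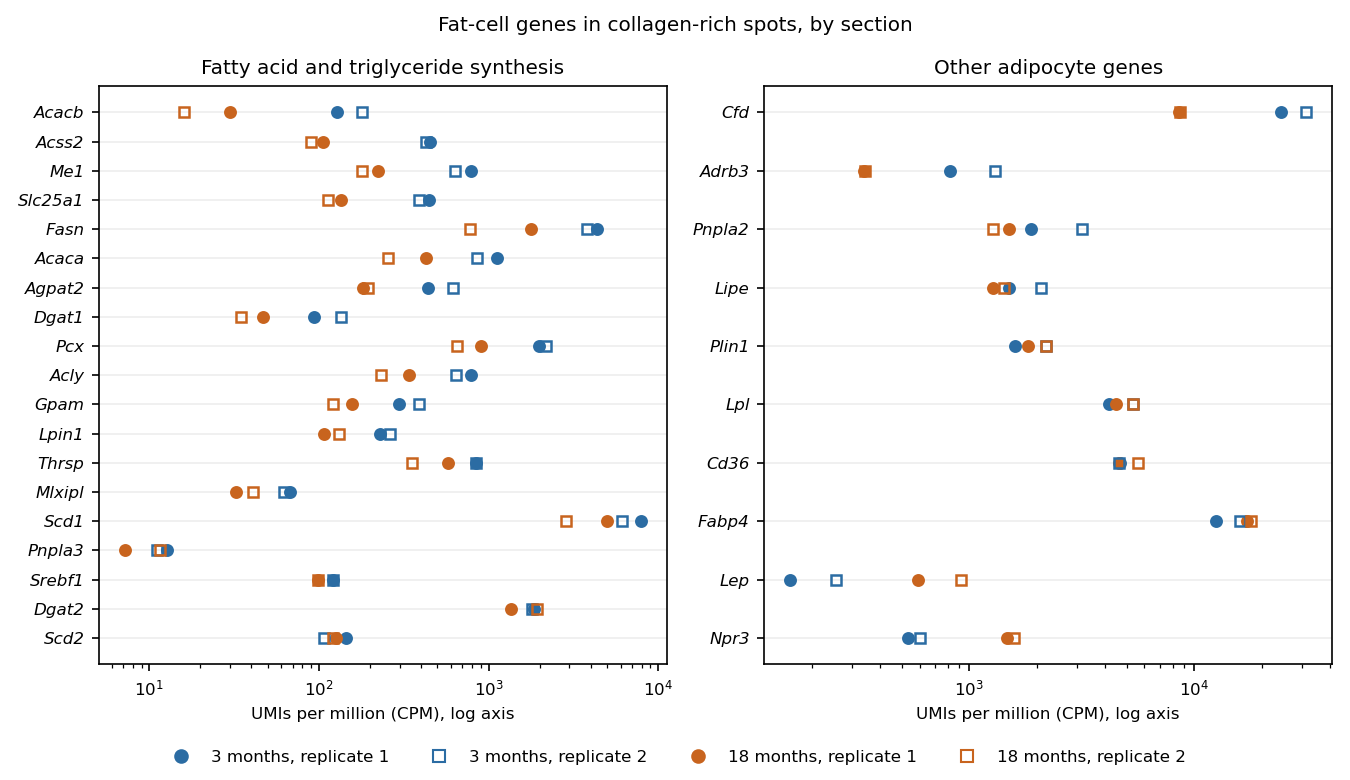
Level of 19 genes of fatty acid and triglyceride synthesis (left, ordered by age difference) and of 10 other genes of fat cells (right) in the collagen-rich spots, in CPM on a log axis, with one symbol per section. The orange symbols (18 months) lie left of the blue symbols (3 months) for 16 of the 19 genes on the left, of which 12 passed the test. On the right they lie left of the blue symbols for Cfd and Adrb3, and right of them for Lep and Npr3. Over all tested genes 45.4% separated the ages in either direction.

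Other fat-cell genes moved in both directions. Of the 12 tested genes of the adipocyte list, 1 rose, 1 fell and 10 did not pass the test, with a median log2 difference of -0.26. Over all tested genes, 0.507% rose and 0.786% fell. Lep, the hormone leptin, had 159.6 and 256 CPM at 3 months and 593 and 915 CPM at 18 months (log2 difference 1.80, SE 0.28, edgeR adjusted p = 0.00395). Cfd, adipsin, a complement protease that fat cells secrete, had 24273 and 31401 CPM at 3 months and 8579 and 8643 CPM at 18 months (log2 difference -1.76, SE 0.31, adjusted p = 0.00869). Both genes separated the ages without overlap, in opposite directions. Cd36, a fatty acid importer, had 4671, 4631, 4645 and 5596 CPM in the 4 sections, Lpl, lipoprotein lipase, had 4175, 5344, 4465 and 5347 CPM, and Plin1, the lipid droplet coat protein perilipin, had 1592, 2199.7, 1825 and 2191 CPM. The ages overlapped in all 3 genes.

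Among genes of lipid breakdown and uptake, a list also made after the values were seen, 1 of 12 rose, 1 fell and the median was -0.11. Over all tested genes, 0.507% rose and 0.786% fell. Adrb3, the adrenergic receptor that drives lipolysis, had 822 and 1295 CPM at 3 months and 340.1 and 345 CPM at 18 months (log2 difference -1.69, edgeR adjusted p = 0.003). Npr3, the natriuretic peptide clearance receptor, had 535 and 603 CPM at 3 months and 1463 and 1581 CPM at 18 months (log2 difference 1.36, adjusted p = 0.00513). The 2 genes separated the ages in opposite directions. Npr1, the signalling receptor for the same peptides, had 136 and 149 CPM at 3 months and 102 and 117 CPM at 18 months and did not pass (log2 difference -0.44, adjusted p = 0.367). The lipases Pnpla2 and Lipe did not pass either (log2 differences -0.93 and -0.47, edgeR adjusted p = 0.13 and 0.42).

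Among the circadian clock genes, again listed after the values were seen, 2 of 15 tested genes fell, none rose and the median was -0.33. Over all tested genes, 0.786% fell. Dbp, a clock output transcription factor, had 251 and 331 CPM at 3 months and 53.9 and 100.1 CPM at 18 months (log2 difference -1.99, SE 0.28, edgeR adjusted p = 0.00178). Tef, a factor of the same family, had 206 and 217 CPM at 3 months and 79.0 and 133 CPM at 18 months (log2 difference -1.06, adjusted p = 0.0484). The sections of an age did not overlap those of the other in either gene. Nr1d1, a repressor of the clock, had 344, 368, 175 and 277 CPM and did not pass (adjusted p = 0.18). The sources used here do not state the hour of tissue collection.

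The 8 largest decreases, among genes that reached a mean of 20 CPM in one age, were those of Dmbt1, Myh4, Mup17, Fam25c, Tnnc2, Chchd10, Cyp2e1 and Acta1. Cyp2e1, a cytochrome P450 that oxidises small molecules, had 1328 and 2901 CPM at 3 months and 263 and 281 CPM at 18 months (log2 difference -3.03, SE 0.34, edgeR adjusted p = 0.000529). Chchd10, a protein between the mitochondrial membranes, had 43.7 and 42.6 CPM at 3 months and 4.79 and 5.80 CPM at 18 months (log2 difference -3.07, SE 0.41, adjusted p = 0.00124). Fam25c had 47.5, 39.6, 5.99 and 2.90 CPM (log2 difference -3.29, adjusted p = 0.00124). In all 3 genes both 18-month sections lay far below both 3-month sections.

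Mup17, a major urinary protein gene, had 270 and 635 CPM at 3 months and 68.3 and 21.8 CPM at 18 months (log2 difference -3.36, edgeR adjusted p = 0.00121), and is uncertain because probes may not separate this family of near-identical genes. Dmbt1, a secreted scavenger-receptor glycoprotein of epithelia, had 24.7 and 83.2 CPM at 3 months and 1.197 and 1.45 CPM at 18 months, with 121 UMIs against 2. Its level at 18 months was 2.78% of that at 3 months, with an exact 95% interval of 0.333% to 10.3% that covers counting error only (edgeR adjusted p = 0.00558).

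Myh4, Tnnc2 and Acta1 encode contractile proteins of skeletal muscle. Myh4 had 113 and 11.2 CPM at 3 months and 2.39 and 4.35 CPM at 18 months, and Acta1 had 242 and 46.7 CPM against 23.9 and 18.9 CPM (edgeR adjusted p = 0.0389 and 0.0224). The high values came from 1 section, the 3-month replicate 1, which held the muscle-rich spot. The 10 skeletal muscle genes summed to 556, 95.4, 46.7 and 42.1 CPM, with Casq1 at 0 in both 18-month sections and Atp2a1 at 0 in one. Among the other spots, 54 and 58 were muscle-rich in the 3-month sections and none were in the 18-month sections. The part of muscle next to the gland in these decreases was not tested.

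Krt19, a keratin of luminal cells, and Prlr, the prolactin receptor, were the 2 of 8 tested luminal genes that fell, and none rose. Over all tested genes, 0.786% fell. Krt19 had 163 and 134 CPM at 3 months and 68.3 and 45.0 CPM at 18 months (log2 difference -1.44, edgeR adjusted p = 0.00513). Prlr had 151 and 103 CPM at 3 months and 64.7 and 30.5 CPM at 18 months (log2 difference -1.46, adjusted p = 0.0194). Both separated the ages, whereas Epcam, a surface protein of all epithelial cells, had 124, 131, 205 and 55.1 CPM and overlapped. Esr1, the oestrogen receptor, had 243, 339, 205 and 267 CPM and overlapped as well (log2 difference -0.37, adjusted p = 0.53).

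Most genes of the extracellular matrix did not pass the test in the collagen-rich spots. Of 99 tested genes in 8 lists of collagens, their processing enzymes, basement membrane, proteoglycans, elastic fibres, glycoproteins and proteases, 4 rose and none fell, beside the 0.507% of all tested genes that rose. The median log2 difference was 0.14, against 0.00 over all genes tested. The matrix genes are not independent of the choice of spots, which takes the same share of each section's spots by collagen, so these values describe the chosen spots and not the stroma as a whole. Without the 3-month replicate 1, none of the 99 passed. Without adipocyte-rich spots 1 of 74 tested matrix genes was higher and the median turned to -0.23.

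The 4 genes were 2 glycoproteins, a protease and a protease inhibitor. Timp4, an inhibitor of matrix metalloproteinases, had 120.4 and 82.2 CPM at 3 months and 408 and 403 CPM at 18 months (log2 difference 1.93, SE 0.22, edgeR adjusted p = 0.000529). Thbs1, thrombospondin 1, which activates latent TGF-beta, had 172 and 167 CPM at 3 months and 572 and 467 CPM at 18 months (log2 difference 1.55, SE 0.21, adjusted p = 0.00124). Adamts5, an aggrecan- and versican-cleaving protease, had 163 and 135 CPM at 3 months and 432 and 431 CPM at 18 months (log2 difference 1.47, SE 0.20, adjusted p = 0.00157). In these 3 genes both 18-month sections lay well above both 3-month sections, and the other spots moved in the same direction (log2 differences 1.56, 1.22 and 0.88). Cilp, a matrix protein that binds growth factors, had 38.01 and 40.6 CPM at 3 months and 71.8 and 113 CPM at 18 months (log2 difference 1.17, SE 0.26, adjusted p = 0.0434), and gave 0.04 (adjusted p = 0.963) when spots were ranked by Dcn and Lum.

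Col4a1 and Col4a2, the chains of basement membrane collagen, had 1286, 1165, 1769 and 1788 CPM and 602, 617, 1012 and 989 CPM, higher in both 18-month sections but not past the test (log2 differences 0.48 and 0.65, edgeR adjusted p = 0.355 and 0.165). Fn1, fibronectin, had 2125, 1915, 1672 and 1465 CPM, Fbn1, fibrillin 1, had 694, 443, 569 and 554 CPM, and Mmp2, a gelatinase, had 865, 867, 1020.3 and 805 CPM. Fn1 was lower in both 18-month sections (adjusted p = 0.431), and the other 2 overlapped. None of 6 fibril-associated collagens, 4 minor fibrillar collagens, 12 basement membrane genes, 24 collagen processing genes, 7 proteoglycans or 17 elastic fibre genes passed. Over all tested genes the share was 1.29% in either direction, which is near 0 for lists of this length.

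**Figure D3:**
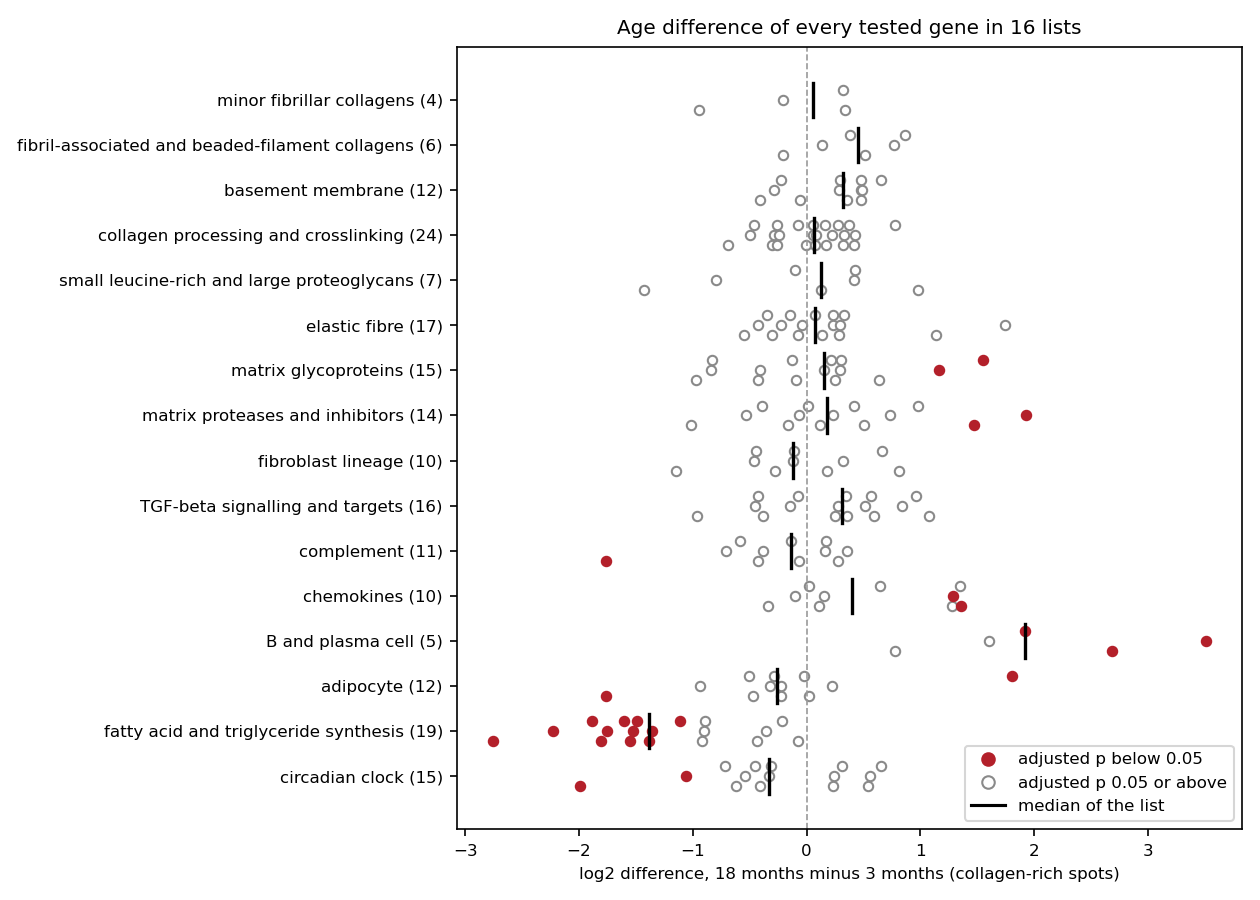
Log2 difference between 18 and 3 months in the collagen-rich spots for every tested gene of 16 lists, with the number of tested genes in parentheses, filled points for genes past the adjusted p threshold of 0.05 and a bar at each list's median. The 12 filled points of fatty acid and triglyceride synthesis lie between -2.75 and -1.11, and the matrix lists lie around 0 with 4 filled points between 1.17 and 1.93.

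Few fibroblast and signalling genes passed the test. None of 10 fibroblast lineage genes, 16 genes of TGF-beta signalling and its targets, 18 growth factors and receptors of the stroma, 6 IGF-binding proteins or 7 senescence and secretory genes did so. Over all tested genes 1.29% passed in either direction, so a count of 0 in lists this short is near that share. The measured senescence and secretory genes summed to 529, 613, 1236 and 905 CPM, higher in both 18-month sections. The stromal growth factors and receptors summed lower in both, and the fibroblast lineage, TGF-beta and IGF-binding sums overlapped. These sums were not tested. Igf1, a growth factor made by stromal and fat cells, had 655 and 650 CPM at 3 months and 448 and 379.96 CPM at 18 months, lower in both sections but not past the threshold (log2 difference -0.72, edgeR adjusted p = 0.12). Cxcl12, a chemokine of fibroblasts, had 217, 191, 263 and 210.3 CPM and overlapped (adjusted p = 0.79). Cdkn2a, the cell cycle inhibitor p16, had 6 and 3 UMIs at 3 months and 12 and 5 UMIs at 18 months, too few to be tested. In CPM these were 3.80, 3.05, 14.4 and 7.25, higher in both 18-month sections.

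The Wnt antagonist Sfrp5, which is made by fat cells and stroma, was the 1 of 5 tested Wnt antagonists that rose, beside 0.507% of all tested genes. It had 32.3 and 17.3 CPM at 3 months and 87.4 and 220.4 CPM at 18 months (log2 difference 2.50, SE 0.39, edgeR adjusted p = 0.00385), without overlap although the 18-month sections lay far from each other. The related Sfrp2, an abundant fibroblast gene, had 310.4, 319.8, 382 and 267 CPM and overlapped. Ccl11, eotaxin, and Ccl5, a T cell chemokine, were the 2 of 10 tested chemokines that rose, beside the same 0.507%. Ccl11 had 108 and 88.3 CPM at 3 months and 273 and 254 CPM at 18 months (log2 difference 1.35, adjusted p = 0.003), and Ccl5 had 23.4 and 21.3 CPM against 61.1 and 53.7 CPM (log2 difference 1.29, adjusted p = 0.0269). The ages were well apart in both.

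Immunoglobulin genes were higher at 18 months, beside 0.507% of all tested genes that rose. Of 5 tested genes of B and plasma cells 3 rose and none fell, with a median log2 difference of 1.92, and none passed without the 3-month replicate 1. Igkc, the kappa light chain, had 43.1 and 22.3 CPM at 3 months and 612 and 196 CPM at 18 months (log2 difference 3.51, SE 0.43, edgeR adjusted p = 0.000709). Ighm, the heavy chain of IgM, had 126 and 137 CPM at 3 months and 605 and 432 CPM at 18 months (log2 difference 1.92, SE 0.22, adjusted p = 0.000529). Jchain, which joins IgM and IgA chains, had 5.07, 2.03, 38.3 and 13.1 CPM (log2 difference 2.68, adjusted p = 0.0408). All 3 separated the ages, and Igkc and Jchain were much higher in the 18-month replicate 1 than in the 18-month replicate 2.

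The surface markers of B cells were near the limit of detection. Cd79a had 15 and 11 UMIs at 3 months and 10 and 38 at 18 months, and Ms4a1, the B cell antigen CD20, had 5, 4, 8 and 12 UMIs. Scaled to the section totals these were 9.50, 11.2, 12.0 and 55.1 CPM and 3.17, 4.06, 9.58 and 17.4 CPM. Both were thus higher in both 18-month sections, but Cd79a did not pass the test and Ms4a1 was too low to be tested. Among T cell genes Cd3g rose (1.27 and 2.03 CPM against 15.6 and 13.1 CPM, edgeR adjusted p = 0.0451), on 4 UMIs at 3 months and 22 at 18 months. Most of the 11 genes of the T and NK cell list were too low to be tested. Of the 11, 5 were higher in both 18-month sections (Cd3g, Cd4, Cd8b1, Trac and Gzmk), 2 were lower in both (Cd3e and Gzmb) and 4 overlapped. Over all tested genes, 45.4% had both sections of one age above both of the other. Some separations rested on very few UMIs, with 0, 0, 2 and 2 for Cd8b1 and 0, 1, 1 and 1 for Gzmk. The 9 genes of the B and plasma cell list summed to 206, 202, 1316 and 777 CPM in collagen-rich spots and to 391, 982, 20483 and 7004 CPM in the other spots, of which 17, 65, 231 and 227 were lymphoid-rich. All 9 genes had UMIs in every section's collagen-rich spots. The lymphoid content of the sections moved with age in the same direction, and its part in the result was not tested. Macrophage genes (0 of 10), MHC class I (0 of 11), MHC class II (0 of 7) and interferon response genes (0 of 16) did not pass. In lists this short a count of 0 is near the 1.29% of all tested genes that passed in either direction.

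**Figure D4:**
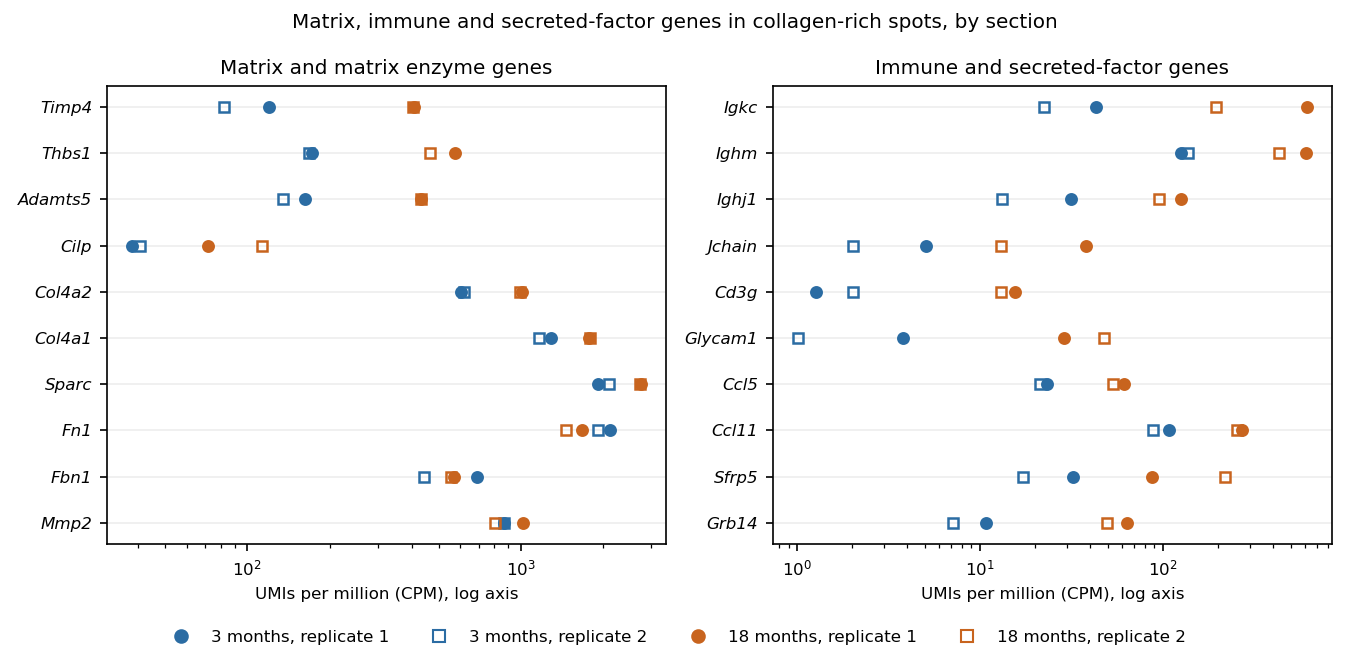
Level of 10 matrix and matrix enzyme genes (left) and of 10 immune and secreted-factor genes (right) in the collagen-rich spots, in CPM on a log axis, one symbol per section. Timp4, Thbs1, Adamts5 and Cilp and all genes on the right lie higher in both 18-month sections, while Fbn1 and Mmp2 overlap.

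The largest increases, by the same rule as the decreases, were those of Glycam1, Igkc, Jchain, Grb14, Sfrp5, Sycp3, Akr1cl and Amhr2. Glycam1, a mucin-like protein of milk and of lymph node venules, had 6 and 1 UMIs at 3 months and 24 and 33 at 18 months (log2 difference 3.70, SE 0.54, edgeR adjusted p = 0.00249). Grb14, an adaptor that restrains the insulin receptor, had 10.8 and 7.11 CPM at 3 months and 63.5 and 49.3 CPM at 18 months (log2 difference 2.54, SE 0.34, adjusted p = 0.00124). Amhr2, the receptor of anti-Müllerian hormone, had 3.80, 6.09, 19.2 and 27.6 CPM (log2 difference 2.21, adjusted p = 0.0474), and Sycp3, a meiotic chromosome protein, 11.4, 2.03, 23.9 and 65.3 CPM (log2 difference 2.46, adjusted p = 0.0454). None of these 4 overlapped between ages, but all rested on few UMIs at 3 months.

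The second comparison asked whether the age difference in the collagen-rich spots differed from that in the other spots of the same sections, as an interaction of region and age with the section as a block. Of 19182 genes tested, 662 passed (3.45%), 348 with a higher and 314 with a lower age difference in the collagen-rich spots. With library size as the only scaling it was 770 genes, of which 19.7% were higher in place of 52.6%, and the median difference over all genes moved to -0.29, so that signs below are relative to the scaling. Without lymphoid-rich spots 59 genes passed, and without the 3-month replicate 1 it was 45. Of the 130 genes that differed with age in the collagen-rich spots, 19 passed here too.

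The 4 largest lower age differences in the collagen-rich spots than elsewhere were of genes of blood cells. The ranking took only genes of the first comparison with a mean of at least 20 CPM in one age and no overlap between ages. Selplg, the selectin ligand of leukocytes, had 65.2, 51.8, 35.9 and 36.3 CPM in the collagen-rich spots (log2 difference -0.77) and a log2 difference of 1.76 in the other spots, and the difference between regions was -2.68 (SE 0.30, edgeR adjusted p = 2.41e-08). Ciita, the activator of MHC class II genes, and Arhgap45, a gene of blood cells, gave -2.61 and -2.58 (adjusted p = 6.72e-07 and 1.05e-07). Ighj1, an immunoglobulin joining segment, rose in both regions, by 2.16 in collagen-rich spots and 4.70 elsewhere (difference -2.55, adjusted p = 0.000861). Without lymphoid-rich spots these 4 values were -1.65, -1.43, -1.40 and -1.72. Ighj1 gave -1.001 (adjusted p = 0.987) without the 3-month replicate 1, which ended the call, and -1.31 without the 18-month replicate 1.

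Matrix genes lay on the other side. Of the 99 matrix genes 31 had a higher age difference in the collagen-rich spots and none a lower one. Over the 10051 genes of the first comparison 346 were higher and 241 lower. The median was 0.71 for the matrix genes, against 0.21 over those 10051 genes. In the other spots the matrix genes had a median log2 age difference of -0.74, against -0.33 over those 10051 genes. Ednra, an endothelin receptor of smooth muscle and stroma, had 16.5 and 14.2 CPM at 3 months and 33.5 and 31.9 CPM at 18 months in the collagen-rich spots, and a log2 difference of -1.49 elsewhere (difference 2.36, SE 0.37, edgeR adjusted p = 2.65e-05). Vcan, the large proteoglycan versican, had 38.01, 29.4, 55.1 and 87.0 CPM and a log2 difference of -1.09 elsewhere (difference 1.96, SE 0.30, adjusted p = 1.28e-05). Neither gene passed the age test within the collagen-rich spots alone (adjusted p = 0.189 and 0.116). Because the spots were chosen by collagen, this contrast of matrix genes is not independent of the choice and stands as a description. Without lymphoid-rich spots 7 of the 99 were higher, with a median of 0.28, beside 31 of the 10051 genes and a median of 0.10. With library size as the only scaling 23 were higher and 1 lower, beside 151 higher and 515 lower of the 10051. The count also turned on single sections. Without the 3-month replicates 1 and 2 in turn the median of the 99 was 0.64 and 0.75, against 0.18 and 0.18 over the 10051 genes. Without the 18-month replicates 1 and 2 in turn it was 0.94 and 0.56, against 0.33 and 0.12.

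The 19 genes of fat synthesis had a median log2 age difference of -1.39 in the collagen-rich spots and of -2.43 in the other spots. Me1 was the 1 gene of the 19 whose difference between regions passed the test (1.15, SE 0.35, edgeR adjusted p = 0.0462), and it gave 0.52 without lymphoid-rich spots. Over the 10051 genes of the first comparison 346 were higher and 241 lower, and the count for the 19 turned on single sections. The median difference between regions of the 19 was 0.91. Without the 3-month replicates 1 and 2 in turn it was 0.62 and 1.09, and without the 18-month replicates 1 and 2 in turn 1.12 and 0.58. For Fasn the difference between regions was 0.88 (adjusted p = 0.36) and for Acss2 0.81 (adjusted p = 0.16).

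**Figure D5:**
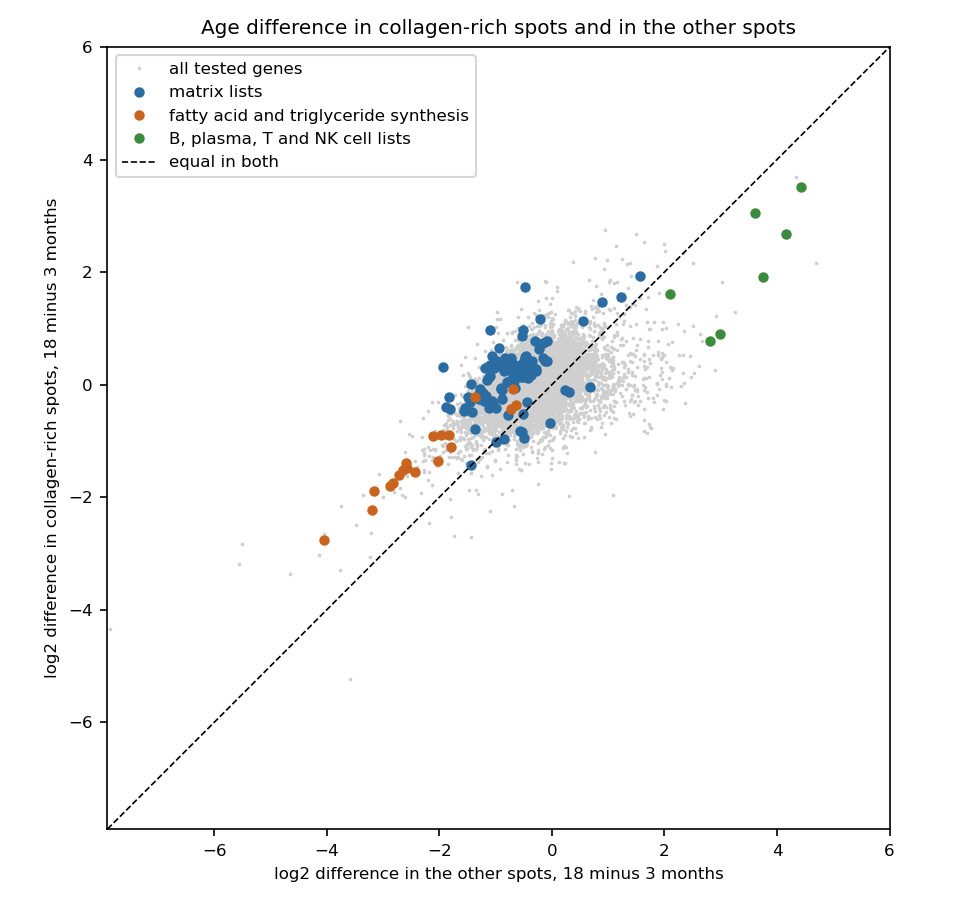
Log2 age difference of each tested gene in the collagen-rich spots (vertical) against that in the other spots of the same sections (horizontal), with the matrix lists in blue, fatty acid and triglyceride synthesis in orange and lymphocyte lists in green. Orange points are negative on the vertical axis and most lie above the dashed line of equality, most green points lie below it, and most blue points lie near 0 on the vertical axis and below 0 on the horizontal one.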

How the data were processed

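UMI counts per spot and gene (19465 genes) were deposited by the authors as matrices from Space Ranger 2.0.0, per the file headers. The build was mm10, per the submitters' processing notes. The authors also deposited a Moran's I score per gene and section. The members and gene lists were chosen with earlier results of these data known, and 3 lists (fat synthesis, lipid breakdown, clock) after the values were seen. Named genes were the 8 largest changes in each direction past the threshold with a mean of at least 20 CPM in one age and no overlap, 4 in each direction between regions, and, per list, up to 4 past the threshold and the 2 of highest level. Igf1, Esr1, Cxcl12 and Cdkn2a were named whatever their values. All genes of the 3 later lists, and Cd79a, Ms4a1 and the T and NK cell genes other than Cd3g and Trbc2, were named after their values were seen.

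Counts were summed per section and tested with edgeR 4.0.16 (glmQLFTest, TMM, filterByExpr) in R 4.3.3, with Benjamini-Hochberg adjustment and a threshold of 0.05. The region by age test used the section as a block. Spot barcodes recur between sections because the slide layout reuses them: 8001 of 11876 occurred in more than 1 section. Intervals are exact Clopper-Pearson at 95%, and limits of a 0 use 3 counts. Both cover counting error only. Alternatives used DESeq2 1.42.0, limma 3.58.1, other scalings, filters, rankings and spot classes, and left out each section. The fits were tested on simulated data. An exact permutation test of 2 against 2 sections cannot go below 0.333 and was not used.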

Additional observations from a re-analysis of the deposited data

Results flagged for a closer look

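In the test of region by age (edgeR, Benjamini-Hochberg), 3.45% of all genes and 31 of the 99 matrix genes passed. Only named genes are given here, of which 4 in each direction were named because they passed this same test. For 28 named genes the age difference in the collagen-rich spots differed from that in the other spots, given here as log2 differences. It was higher in the collagen-rich spots for the matrix genes Vcan (1.96), Mfap4 (2.01), Col4a2 (1.45), Mmp3 (1.38), Col5a2 (1.31), Mmp2 (1.29), Cilp (1.26), Fn1 (1.22), Col5a3 (1.14), Col6a3 (1.07), Fbn1 (1.06) and Efemp1 (0.99), which are not independent of the choice of spots. It was also higher for Ednra (2.36), Sfrp2 (1.33), the clock genes Hlf (1.12) and Bhlhe41 (1.11), the fibroblast and pericyte gene Cd248 (1.03), the endothelial gene Cdh5 (0.94), the receptor Npr1 (0.99) and Me1 (1.15). Acta1 stood at 2.66 and at -0.86 without muscle-rich spots.

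It was lower in the collagen-rich spots for Selplg (-2.68), Ciita (-2.61), Arhgap45 (-2.58), Ighj1 (-2.55), the T cell receptor gene Trbc2 (-2.27), Ccl5 (-2.02) and Ighm (-1.78). Without lymphoid-rich spots the 7 values were closer to 0, at -1.65, -1.43, -1.40, -1.72, -0.85, -0.54 and -0.83, and Fbn1, Me1 and Ednra stood at 0.48, 0.52 and 2.06. Of the 28 genes, 9 then passed the threshold (Acta1, Arhgap45, Ciita, Cilp, Ednra, Ighj1, Mfap4, Selplg and Vcan). Without the 3-month replicate 1, 6 passed (Acta1, Arhgap45, Ccl5, Ciita, Ednra and Selplg), none of them from the matrix lists, and without the 3-month replicate 2 it was 10.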

How the results depend on the processing

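The 130 genes past the threshold became 75 with 10% of spots, 82 with spots of at least 2000 UMIs, 29 without adipocyte-rich spots, 315 with no filter on low counts and 39 in a test against a fold of 1.5. They ranged from 7 (without the 3-month replicate 1) to 181 with 1 section left out. DESeq2 gave 87, limma 97 and sums thinned to equal depth 125. One share limit in all sections, chosen after seeing the data, gave 89. The 662 genes between regions became 393 with 2.5% of spots, 1273 with at least 2000 UMIs, 59 without lymphoid-rich and 1195 without epithelial-rich spots, and ranged from 45 to 2348 with 1 section left out. The cause of these shifts was not tested. Without adipocyte-rich spots the log2 age difference turned to 0.67 for Acaca, -0.24 for Cilp, 0.030 for Fasn, 0.27 for Krt19 and 2.42 for Oxtr, and without muscle-rich spots the Acta1 difference between regions turned to -0.86. Of the other values, 3367 kept their side of the threshold, 207 fell short of it and 34 newly passed. The 3367 may include values that changed sign while past the threshold in neither fit.

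A fit with the replicate block gave 144 genes, but same-numbered sections did not deviate together (r = 0.0013 across 10051 genes, which are not independent replicates), so the numbers do not pair the sections. Depth per spot was lower at 18 months, and what differences it could detect in genes of few UMIs was not tested.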
